A study of Drosophila melanogaster with 2 samples.

Results

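The thin filament of the indirect flight muscles (IFMs) is switched by troponin and tropomyosin, and their 9 genes were followed here in control and *bs* knockdown (KD) flies. The 9 genes were taken by name and by FlyBase identifier from the 13931 genes of the expression table. They are 5 genes for troponin C (*TpnC4*, *TpnC41C*, *TpnC47D*, *TpnC73F* and *TpnC25D*), 1 for troponin T (*up*), 1 for troponin I (*wupA*) and 2 for tropomyosin (*Tm1* and *Tm2*). RNA came from the IFMs of females aged 3 days, with 4 females pooled in each sample. Control flies (genotype 1151/+) carried only the *1151-Gal4* driver, which is active in myoblasts before muscles form. In *bs* KD flies (1151>bs[RNAi KK108659]) the same driver expressed a double-stranded RNA against transcripts of *bs*, the gene for the *Drosophila* serum response factor. There was 1 library per genotype, so no difference below has a replicate check. The intervals given with ratios and levels are exact 95% intervals that cover counting error only.

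Calcium reaches the contractile apparatus through troponin C, a calcium-binding protein related to calmodulin. Troponin I holds back the interaction of actin with myosin, and troponin T ties the complex to tropomyosin, a coiled coil that lies along the actin filament. *Drosophila* has several troponin C genes with different use among fibre types. *TpnC4* is the troponin C of the stretch-activated flight muscle, whereas *TpnC41C* is the main form of tubular muscles such as the jump muscle. The *Tm1* gene also makes the heavy troponins of flight muscle, which are tropomyosins with a proline-rich extension.

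Levels are given in transcripts per 1000000 transcripts (TPM), a value already divided by transcript length, so that genes can be set side by side. The depth behind them is 20955053 estimated reads in the control and 19767477 in *bs* KD. Genes that reached 1 TPM in either library are called detected, and there were 6384 of them. Log2 changes compare *bs* KD with control after 1 TPM was added to both values, which understates the change of low genes. The median log2 ratio was 0.13 among the 1804 genes that reached 10 TPM in each library, and changes are also given relative to this shift. The targeted gene *bs* stood at 2.75 TPM in control IFMs and 1.80 TPM after *bs* KD, a ratio of 0.656 (0.503 to 0.852). This value sums all *bs* transcripts, whereas the paper states that the RNA targets only the RA and RC forms. By quantitative RT-PCR the paper reports a large reduction of those forms in IFMs, which the summed value does not measure. With a reporter the paper also found *bs* activity in tracheal cells. The summed tracheal markers stood at 38.4 TPM in control IFMs and 8.76 TPM after *bs* KD. The part of tracheal cells in the *bs* value was not tested. Of 29 markers of trachea, fat body, gut, neurons, glia, hemocytes and ovary, 17 were detected. Of these, 5 were lower and 2 were higher by 2-fold or more, beside 6.05% and 9.38% of all detected genes. Their median log2 change was −0.31, beside 0.07 over all detected genes. The whole list summed to 85.3 TPM in control IFMs and 131.3 TPM after *bs* KD, and the 28 markers other than *nrv2* to 74.9 and 46.7 TPM. Of that list 3 markers, *Jon65Ai*, *osk* and *bam*, were at 0 in both libraries. In a dissected tissue, fewer cells of a type and less RNA per cell cannot be told apart.

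Within this set the genes fell into 3 groups. The genes for the troponin complex of flight muscle (*TpnC4*, *up* and *wupA*) were among the 22 most abundant genes of both libraries and stood 1.19 to 1.24 times higher in *bs* KD. Of the tropomyosin genes, *Tm1* was lower in *bs* KD, at 62.0% of the control level, whereas *Tm2* stood at 102.8%. *TpnC41C* was the only one of the 6 detected members that differed by 2-fold or more, at 10.9 times the control level from a low base. The other 3 troponin C genes were below 1 TPM in both libraries.

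Of the 6 detected members, 1 was higher by 2-fold or more and 0 were lower by that size. Among all 6384 detected genes, 9.38% were higher and 6.05% were lower by 2-fold or more. The 5 abundant members are better read against the 168 genes with at least 1000 TPM in control IFMs, of which 0.595% were higher and 2.98% were lower by 2-fold or more. None of these 5 passed that size. The median log2 change over the 6 detected members was 0.28, beside 0.07 over all detected genes. The median of the 168 abundant genes was 0.02, and their middle 50% ran from −0.13 to 0.16.

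**Figure D1:**
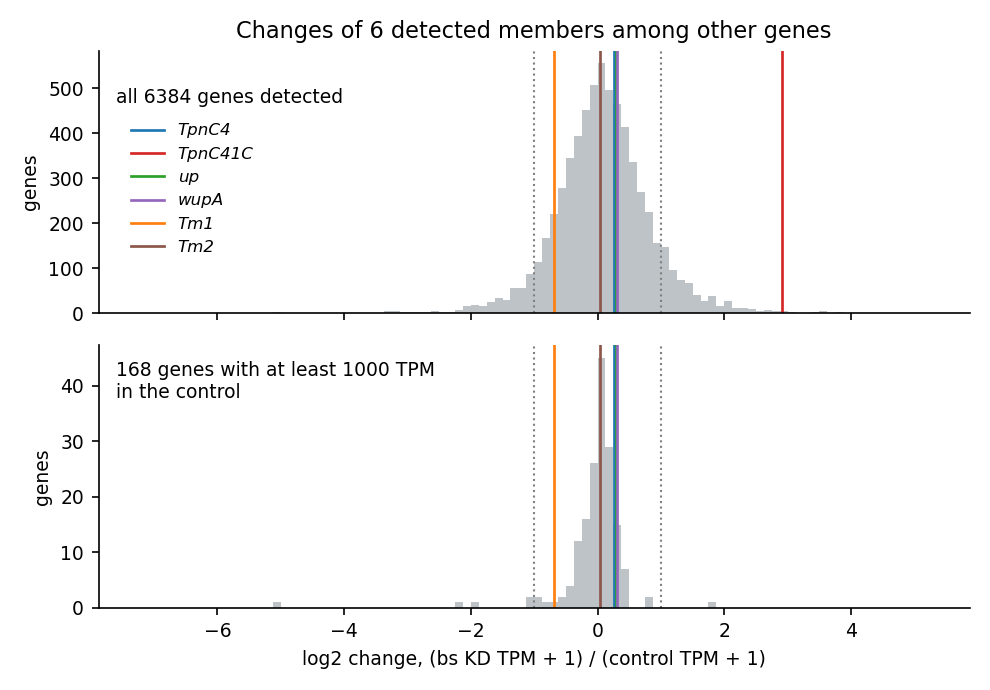
Log2 change of *bs* KD over control for all detected genes (top) and for the genes with at least 1000 TPM in control IFMs (bottom), as numbers of genes per bin, with the detected members drawn as coloured lines and 2-fold marked by dotted lines. *TpnC41C* lies far to the right at 2.92, *Tm1* is to the left at −0.69, and *TpnC4*, *up* and *wupA* nearly coincide.

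Troponin C in flight muscle came almost entirely from *TpnC4* (FBgn0033027), located at 5503437 to 5507866 of chromosome arm 2R (Release 6 assembly). It had 7568 TPM in control IFMs and 9037 TPM after *bs* KD, from 95961 and 115314 estimated reads. The *bs* KD value was the higher by 1.19-fold, with an interval of 1.18 to 1.20. This is a log2 change of 0.26, or 0.13 relative to the shift. *TpnC4* ranked 21st among all genes in the control and 18th in *bs* KD.

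*TpnC41C* (FBgn0013348) lies on the same arm from 5065237 to 5070210, which places it 433 kb from *TpnC4*. It had 1.96 TPM in control IFMs and 21.3 TPM after *bs* KD, from 25.7 and 283.7 estimated reads. The ratio was 10.9, with an interval of 7.19 to 16.8, and the log2 change was 2.92. Only 20 of the 6384 detected genes had a higher log2 change. Its rank by level went from 4720th to 1338th. The nearest genes on either side were far from such values. *CG3107*, 20370 bases away, had 34.6 TPM in control IFMs and 35.6 TPM after *bs* KD, and *Ir41a* was listed at 0 in the control and stood at 0.0545 TPM after *bs* KD. The study lists *TpnC41C* among the genes it selected from these same libraries, so its direction here is not independent evidence.

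Even at its higher level, *TpnC41C* was a minor part of the troponin C transcripts. Its share of the summed TPM of the 5 genes was 0.0259% in the control and 0.236% in *bs* KD. By estimated reads the shares were 0.0267% (0.0177% to 0.0397%) and 0.245% (0.218% to 0.276%), with exact binomial intervals that do not overlap. *TpnC4* held 99.95% of the troponin C TPM in control IFMs and 99.76% in *bs* KD. The level after *bs* KD was higher by 1469 TPM for *TpnC4* and by 19.4 TPM for *TpnC41C*.

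The remaining troponin C genes were close to the limit of what this depth can show. *TpnC47D* (chromosome arm 2R, 11273845 to 11275286) and *TpnC73F* (3L, 17046063 to 17048390) are known from larval and other adult muscles. *TpnC47D* had 0.736 TPM from 6.70 estimated reads in the control and was listed at 0 in *bs* KD. The control level was 2.25 times the limit of 3 reads in the *bs* KD library (0.327 TPM), but its own interval of 0.309 to 1.58 TPM reaches below that limit. With counting error in both libraries, the interval of the *bs* KD to control ratio ends at 0.689. With reads divided by the step in which they move, it ends at 0.844. *TpnC73F* had 0.449 TPM in control IFMs and 0.0709 TPM after *bs* KD, from 7.81 and 1.12 estimated reads. Its ratio of 0.158 has an interval of 0.0031 to 1.03, which includes no difference. *TpnC25D* (2L, 5216701 to 5219053) had 0.338 TPM in control IFMs, from 3.35 estimated reads, and was listed at 0 in *bs* KD, too few reads for a fold. It shares 54 exonic bases with *tkv* on the opposite strand, a gene that stood at 4.79 and 4.86 TPM. All 3 had the lower value in *bs* KD, but the share of other genes at such levels that did so was not computed. The interval of the *TpnC25D* ratio ends at 2.40. A difference was not detectable at this depth for *TpnC73F* and *TpnC25D*, and that of *TpnC47D* rests on 6.70 and 0 estimated reads.

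Troponin T is encoded by *up* (FBgn0004169; X chromosome, 13593474 to 13602578), which had 7492 TPM in control IFMs and 9186 TPM after *bs* KD. Its level was higher by 1.23-fold (1.22 to 1.23), a log2 change of 0.29, or 0.17 relative to the shift. Troponin I is encoded by *wupA* (FBgn0283471; X chromosome, 18105568 to 18116922), which had 8312 TPM in control IFMs and 10287 TPM after *bs* KD. Its level was higher by 1.24-fold (1.23 to 1.25), a log2 change of 0.31, or 0.18 relative to the shift. *wupA* was the most abundant of the 9 genes in both libraries, ranking 19th and 14th among all genes. In the control *TpnC4* stood above *up* by a ratio of 1.01 (1.002 to 1.02), and in *bs* KD *up* stood above *TpnC4* by 1.02 (1.01 to 1.02). Both differences exceed counting error, but a ratio between genes also rests on the transcript lengths assigned to them, which these intervals do not cover. The spread between flies was not measured either, so no order can be given for *TpnC4* and *up*.

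These 3 genes were also close to one another in the size of their change. Of the 168 abundant genes, 144 had a lower log2 change than *TpnC4*, 148 than *up* and 151 than *wupA*. By distance in log2 level over the 2 libraries, the genes nearest to *TpnC4* in the whole table were *up* (0.028), *wupA* (0.23) and *GstS1* (0.23). *GstS1*, a glutathione S-transferase abundant in flight muscle, had 8730 TPM in control IFMs and 9760 TPM after *bs* KD. *GstS1* is also on the list of other thin filament proteins described below. The same measure placed *CG12321* (0.061), *CG40472* (0.19) and *Ctl2* (0.21) nearest to *TpnC41C*. With 2 libraries such distances describe level and change only.

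Tropomyosin was the component of the set that was lower. *Tm1* (FBgn0003721) lies on chromosome arm 3R from 15278220 to 15308779, and *Tm2* (FBgn0004117) follows it on the same strand from 15310193 to 15315197, after a gap of 1413 bases. *Tm1* had 5284 TPM in control IFMs and 3277 TPM after *bs* KD, from 151534 and 94998 estimated reads. The ratio was 0.620 (0.615 to 0.625), which is 1.61-fold lower and a log2 change of −0.69, or −0.82 relative to the shift. Only 8 of the 168 abundant genes had a lower log2 change. *Tm2* had 4604 TPM in control IFMs and 4733 TPM after *bs* KD, a ratio of 1.03 (1.02 to 1.04). Its log2 change of 0.04 became −0.09 relative to the shift, so that no direction can be given for *Tm2*.

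The order of the pair therefore turned over between the libraries. *Tm1* made up 53.4% of the tropomyosin TPM in control IFMs and 40.9% in *bs* KD. The ratio of *Tm1* to *Tm2*, which does not depend on how the libraries are scaled, went from 1.15 to 0.692. The *Tm1* value sums all of its transcripts, 18 in the annotation used here with coding lengths from 161 to 711 residues, so muscle tropomyosin, heavy troponins and cytoplasmic forms are not told apart. *Tm1* shares 280 exonic bases with *l(3)neo43* on the opposite strand, which stood at 74.8 TPM in control IFMs and 213.6 TPM after *bs* KD. The sources used here do not say whether the libraries kept strand, and the part of this overlap in the *Tm1* value was not tested. *Act88F*, the flight muscle actin gene, lies 124.8 kb beyond *Tm2*.

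The proportions of the troponin subunit transcripts were similar in both libraries. For 1 transcript of troponin T there were 1.01 of troponin C and 1.11 of troponin I in the control, and 0.986 and 1.12 in *bs* KD. The changes of these proportions were 0.976-fold and 1.01-fold. Tropomyosin did not keep to this proportion, with 1.32 transcripts per transcript of troponin T in the control and 0.872 in *bs* KD, a change of 0.661-fold. Summed tropomyosin was 9888 TPM in control IFMs and 8010 TPM after *bs* KD. The distance to actin was larger still. The 6 actin genes summed to 33188 TPM in control IFMs, nearly all of it *Act88F*, and to 7556 TPM after *bs* KD. Actin transcripts per tropomyosin transcript went from 3.36 to 0.943, and per troponin T transcript from 4.43 to 0.823. In *bs* KD each of the 4 regulatory components therefore stood above actin in TPM, which rests on the division by transcript length. In estimated reads, which are not so divided, actin in *bs* KD was 1.79 times troponin C and 0.990 times troponin I. Together the 9 genes held 3.33% of all TPM in control IFMs and 3.65% in *bs* KD.

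**Figure D2:**
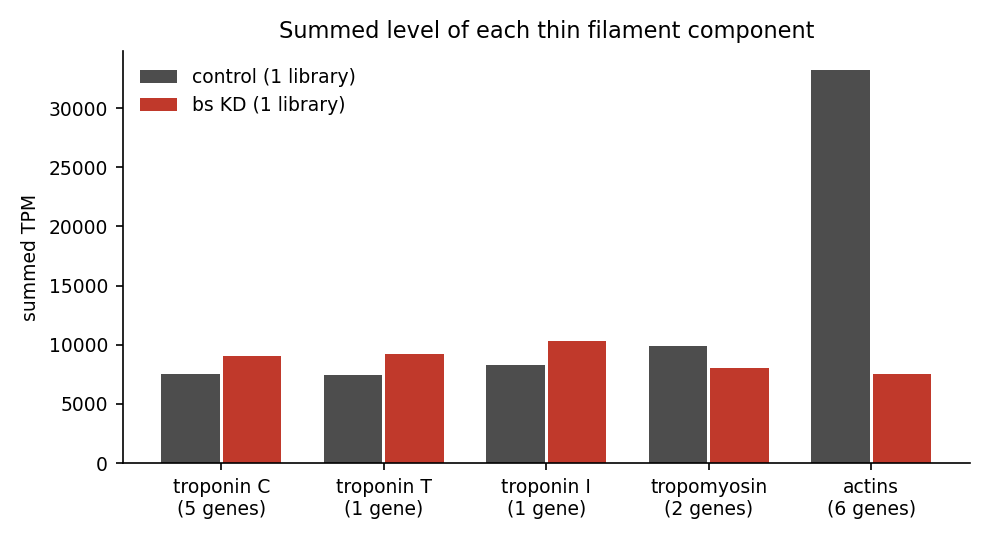
Summed TPM of the genes for each thin filament component in the control library (grey bars) and the *bs* KD library (red bars), with no error bars because there was 1 library per genotype. The troponin bars are slightly taller in *bs* KD, the tropomyosin bar is lower (9888 and 8010 TPM), and the actin bar goes from 33188 to 7556 TPM, below all of the others.

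Transcript length was examined because troponin T, troponin I and *Tm1* have many spliced forms, with 18 annotated transcripts for *up*, 13 for *wupA*, 6 for *Tm2* and 2 or 3 for each troponin C gene. The gene lengths deposited with the levels could not be used for this. They gave *Tm1* a length of 118 bases in the control and 125 bases in *bs* KD, although its shortest annotated transcript has 752 bases. They gave *wupA* 177 and 176 bases, against a shortest transcript of 1029 bases. A mean length was therefore derived from the ratio of estimated reads to TPM, which in genes with 1 annotated transcript returns the annotated length. Wherever a gene had reads, its derived length lay within or at the ends of the range of its annotated transcripts.

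By this measure, mean transcript length differed little between the libraries for the abundant members. It was 1460 bases in both for *up*, 1205 and 1210 bases for *wupA*, 1680 and 1687 bases for *Tm1*, and 1665 and 1676 bases for *Tm2*. The lower level of *Tm1* was thus not accompanied by a large shift in the mean length of its transcripts, although forms of similar length cannot be separated. For genes with a pair of annotated transcripts the derived length also gives an estimate of the share of each. It assumes that the authors, who used an earlier annotation, quantified the same pair. The longer transcript of *TpnC4* (849 bases, beside 746) was estimated at 50.7% in the control and 50.3% in *bs* KD. How well the reads separate these forms was not tested. *TpnC41C* had a derived length of 821 bases in the control, that of its shorter transcript, and 827 bases in *bs* KD. The longer form of 1880 bases thus made up 0.541% of *TpnC41C* transcripts in *bs* KD, so nearly all of its transcripts were of the shorter form. That share rests on a difference of 5.73 bases in derived length at 283.7 estimated reads, and no interval was computed for it. The coding length is 154 residues for both forms of *TpnC41C* and 153 for both forms of *TpnC4*.

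**Figure D3:**
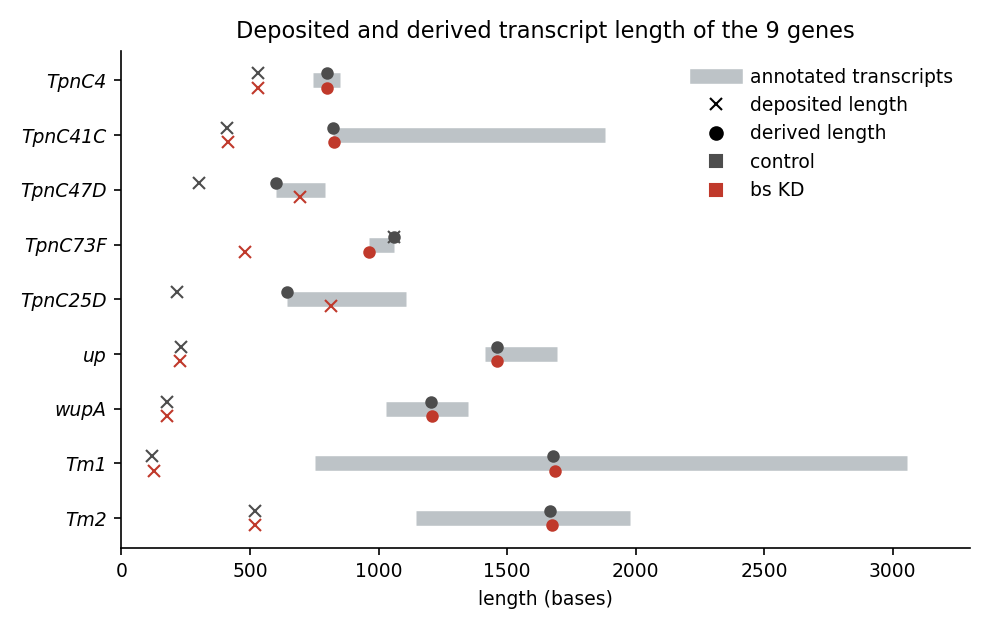
Length in bases for each of the 9 genes in the control (grey) and *bs* KD (red) libraries, with the range of annotated transcripts as a pale bar, the deposited gene length as crosses and the length derived from reads and TPM as circles. The circles lie on the bars, at nearly the same place in both libraries for *Tm1* (1680 and 1687 bases), while most crosses lie to the left of the bars; *TpnC47D* and *TpnC25D* have no circle in *bs* KD because they were listed at 0.

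The partners of troponin and tropomyosin were described from lists of named genes. Among the 6 actin genes, *Act88F* was lower (33116 TPM in control IFMs and 7471 TPM after *bs* KD, log2 change −2.15) and *Act57B*, an actin of larval and other non-flight muscles, was higher (2.08 and 31.5 TPM, log2 change 3.40). Of 7 detected genes among other thin filament proteins, *cpa*, a subunit of the actin capping protein, was the 1 higher by 2-fold or more (7.61 and 17.5 TPM). The list had a median log2 change of 0.08, and its lowest value was −0.76 for the calponin gene *Mp20*. *tmod*, the tropomodulin gene, whose product caps the pointed end of thin filaments and binds tropomyosin, had 212.0 and 223.5 TPM. None of the 8 genes found for the thick filament and none of the 8 for the Z-disc and M-line passed 2-fold. Among all 6384 detected genes, 9.38% were higher and 6.05% lower by that size, so finding none among 8 genes says little. The thick filament list had a median of 0.15, and the Z-disc and M-line list of −0.06. The thick filament values ran from −0.35 for *bt*, the projectin gene, to 0.85 for *Mf*, the myofilin gene. Those of the Z-disc and M-line ran from −0.78 for *Zasp67* to 0.67 for *cher*, the filamin gene.

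Among 9 detected genes for calcium binding and calcium handling, the median log2 change was −0.30, beside 0.07 over all detected genes. The highest value of the list was that of *Scp2*, which encodes a sarcoplasmic calcium-binding protein (2.49 TPM in control IFMs and 25.3 TPM after *bs* KD, log2 change 2.91). Its relative *Scp1* had the lowest value of the list (2032 and 1054 TPM, log2 change −0.95). Some values were small, as for *Cam*, the calmodulin gene (211.6 and 197.0 TPM, log2 change −0.10). Of 12 detected regulators of muscle fate and splicing, 2 stood at least 2-fold lower, *salm* (16.8 and 6.31 TPM, log2 change −1.28) and *salr* (5.80 and 1.72 TPM, log2 change −1.32), the spalt genes of the flight muscle programme. The highest of the list was *ewg*, at 0.70 (1.96 and 3.80 TPM). None of the 12 was higher by 2-fold or more, beside 9.38% higher and 6.05% lower among all detected genes.

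**Figure D4:**
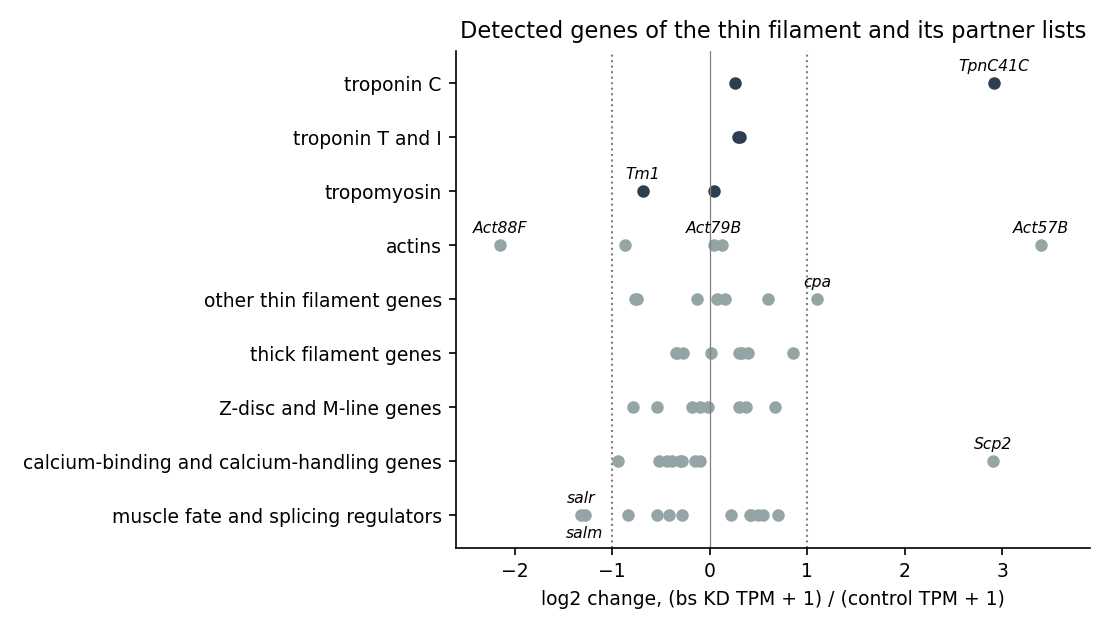
Log2 change of *bs* KD over control for each detected gene of the troponin and tropomyosin lists (dark points) and of the partner lists (pale points), with 2-fold marked by dotted lines and genes past it named, as well as *Tm1* and *Act79B*. *TpnC41C*, *Act57B* and *Scp2* stand apart on the right at 2.92, 3.40 and 2.91, and *Act88F* at −2.15 on the left.

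Markers of other muscles were set beside *TpnC41C*, since dissected flight muscle could carry fibres of another type. *Act79B*, the actin gene of tubular muscles, had 18.9 TPM in control IFMs and 19.5 TPM after *bs* KD. Its ratio of 1.03 had an interval of 0.912 to 1.17, at 501 and 517 estimated reads. The other list, of larval, abdominal and visceral muscle, holds 2 actin genes that differed in opposite directions. *Act57B* had 2.08 and 31.5 TPM, whereas *Act87E* was not detected, at 0.755 and 0.208 TPM, and the list summed to 2.84 and 31.7 TPM. The 4 defining markers of flight muscle were all present in both libraries, with a summed level of 53811 TPM in control IFMs and 33015 TPM after *bs* KD. Of these, *Act88F* (33116 and 7471 TPM) and *salm* were lower by 2-fold or more. *TpnC4* (7568 and 9037 TPM) and *fln*, the flightin gene (13111 and 16500 TPM), were higher by less than 2-fold. The lower sum therefore comes almost only from *Act88F*. The part of other fibres in the *TpnC41C* value was not tested beyond these levels.

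Among markers of other tissues, *nrv2*, a subunit of the sodium pump that had been listed as a marker of glia, was at 10.4 TPM in control IFMs and 84.6 TPM after *bs* KD, and alone held most of the 86.8 TPM of the glial list in *bs* KD. The other detected glial gene, *moody*, had 3.66 and 1.90 TPM. The tracheal list went the other way, from 38.4 to 8.76 TPM over 5 genes. The chitin deacetylase genes *verm* and *serp* (log2 changes −3.10 and −1.99) and *Gasp* (−1.37) were lower by 2-fold or more, and *btl* had the highest value of the list, −0.21. The fat body list summed to 22.4 and 22.3 TPM, with *Lsp2* and *Fbp1* lower by 2-fold or more (both −1.27) and *Yp3* at 0.98. In the gut list, which summed to 2.43 and 7.86 TPM, the protease gene *Jon65Aiii* was higher by 2-fold or more (1.41) and *alphaTry* had the lowest value among detected genes, 0.84. The detected markers of neurons, *elav*, and hemocytes, *Ppn*, stood at −0.53 and 0.11. The part of these tissues in the changes of *TpnC41C* and *Tm1* was not tested.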

How the data were processed

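IFM RNA was selected for poly(A) and sequenced as single-end reads. The authors quantified the reads with Salmon on Galaxy against annotated transcripts of *D. melanogaster* release 6.21 and deposited, per gene and library, a TPM value, an estimated count of reads and 2 gene lengths. The versions of Salmon and of the read processing are not given in the sources used here. Within a library TPM add up to 1000000. The deposited estimated counts move in steps of 1.116 (control) and 1.117 (*bs* KD), since 89.8% and 89.6% of low counts of genes with 1 transcript are whole multiples of these to within 0.02. All columns of values per sample were used (0 left out). The authors' comparison columns (DESeq2 fold changes, errors and p-values) were not used.

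Gene names and coordinates came from the BDGP6.54 annotation of the same assembly, Release 6. Of the 13931 genes, 13842 had a symbol, and 92 of the 93 genes in the lists were found (not *unc-45*). The members and all lists were chosen with earlier results of these data known, and *CG3107*, *Ir41a*, *tkv* and *l(3)neo43* were named after their values were seen, by position. From each list the genes named are those with the highest and lowest change, those past 2-fold and the markers of muscle type; *tmod*, *fln* and *Cam* were added after their values were seen.

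Ratios have exact conditional binomial (Clopper-Pearson) intervals from estimated reads rounded to whole numbers, levels exact Poisson intervals. A gene listed at 0 was bounded with 3 reads. Mean length was derived as reads over TPM, scaled by genes with 1 transcript, plus the 99 bases by which length exceeds effective length in 99.8% of such genes. Alternatives covered pseudocount, scaling, detection and fold, and the marker sum without *nrv2* was added after seeing the data. Promoter and protein sequences were not analysed here. Python 3.11.15, pandas 2.3.3 and scipy 1.17.1 were used.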

Additional observations from a re-analysis of the deposited data

How the results depend on the processing

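With 1 library per genotype, no test and no leaving out of a replicate was possible, and depth limits what can be said of *TpnC47D*, *TpnC73F* and *TpnC25D*. The count of members at 2-fold or more was 1, and became 2 at 1.5-fold, where *Tm1* was added. It was also 2 with the total taken without the mitochondrial genome, where *TpnC47D* passed detection and counted as lower. In that setting 9.53% of all detected genes were higher and 7.37% lower, and *TpnC47D* rested on 6.70 and 0 estimated reads. The share of all detected genes higher and lower by the same rule was 14.2% and 10.7% with 0.1 TPM added, 4.10% and 2.13% with 5 TPM added, 7.35% and 7.09% with median-ratio scaling, 15.7% and 7.20% with detection at 10 TPM, 4.30% and 2.77% with no detection filter, 21.3% and 15.1% at 1.5-fold, and 2.96% and 2.04% at 3-fold. The median log2 change of the detected members was 0.15 with median-ratio scaling, 0.24 without *Act88F* in the total, 0.21 without the mitochondrial genome, 0.37 on reads per 1000000, 0.28 and 0.27 with 0.1 and 5 TPM added, 0.26 with detection at 0.5 TPM and 0.040 with no filter. *Tm2* turned from 0.04 to −0.089 with median-ratio scaling and to −0.0053 without the mitochondrial genome, by the scaling itself. Over 6 pseudocounts and scalings *TpnC41C* ran from 1.92 to 3.38, *TpnC4* from 0.13 to 0.35, *up* from 0.17 to 0.39, *wupA* from 0.18 to 0.41 and *Tm1* from −0.82 to −0.59. With reads divided by their step, an alternative added after seeing the data, the interval of the *TpnC41C* ratio was 7.10 to 17.5. That of the *TpnC47D* ratio then ended at 0.844 in place of 0.689.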

Other observations

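The mismatch between deposited gene length and annotation was not particular to the thin filament. Of 5225 genes with at least 50 estimated reads in the control, the deposited length lay within the range of annotated transcripts, to within 5 bases, for 38.8%, and the length derived from reads and TPM for 99.9%. In *bs* KD the shares were 40.6% and 99.9% of 5265 genes. Lengths and any comparison of them between the libraries are therefore better taken from reads and TPM, whereas TPM itself does not rest on the deposited gene lengths. For *TpnC73F* the deposited length went from 1059 to 481 bases, while the derived length went from 1059 to 962 bases, the lengths of its annotated transcripts, on 7.81 and 1.12 estimated reads.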
